A study of Mus musculus with 9 samples.

Results

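The 6 genes that encode the peroxisome proliferator-activated receptors (PPARs) and the retinoid X receptors (RXRs) were followed across arrays of mouse brown fat cells: Ppara, Ppard and Pparg for the PPARs, and Rxra, Rxrb and Rxrg for the RXRs. They were selected by gene symbol, with earlier results of these data known, and each of the 6 symbols matched 1 probe cluster among the 30860 genes tested. The study treated fully differentiated brown fat cells for 8 h with AM73 or AM80, each at 10 µM, or with the solvent dimethyl sulfoxide (DMSO). The title of the study describes the compounds as activators of PPARGC1A1, a form of the PPAR coactivator PGC-1α, and both are known here by code name only. Each of the 3 groups had 3 arrays, and all cells came from C57BL/6 mice with no genetic change named. The labels call the replicates technical and do not say whether they came from separate cultures, so a p-value measures the spread between these arrays only.

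PPARs are nuclear receptors that bind fatty acids and their derivatives. Each of them binds DNA as a heterodimer with an RXR, at elements built from repeats of the sequence AGGTCA. PPARγ is required for fat cell formation in the mouse and keeps up the lipid storage genes of the mature cell. PPARα and PPARδ are best known for genes of fatty acid oxidation, and PPARα is abundant in mouse brown fat. RXRs bind 9-cis-retinoic acid and other ligands, and they also pair with the liver X, thyroid hormone, retinoic acid and vitamin D receptors. Coactivators such as PGC-1α and corepressors such as NCoR1 decide what a bound pair does to its gene.

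The promoters of the 3 receptor genes that differed between groups are given first, since these are the regions from which their RNA starts. RefSeq start sites on GRCm38.p6 gave 11 windows for the 6 genes, each of 300 bases, with 250 before the start and 50 after it. All 6 genes lie on the plus strand, the sequences run 5′ to 3′, and capitals mark each match to AGGTCA or to its reverse TGACCT. The windows of Pparg are chr6:115360894-115361193, chr6:115362099-115362398 and chr6:115421816-115422115. That of Ppard is chr17:28232504-28232803, and those of Rxra are chr2:27676951-27677250 and chr2:27709042-27709341.
Pparg window 1: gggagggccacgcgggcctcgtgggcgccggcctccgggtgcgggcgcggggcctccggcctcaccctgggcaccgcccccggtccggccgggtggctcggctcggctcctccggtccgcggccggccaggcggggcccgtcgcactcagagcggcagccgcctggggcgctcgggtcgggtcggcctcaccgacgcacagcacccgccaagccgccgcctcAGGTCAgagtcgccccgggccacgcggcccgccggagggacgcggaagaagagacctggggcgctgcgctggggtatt
Pparg window 2: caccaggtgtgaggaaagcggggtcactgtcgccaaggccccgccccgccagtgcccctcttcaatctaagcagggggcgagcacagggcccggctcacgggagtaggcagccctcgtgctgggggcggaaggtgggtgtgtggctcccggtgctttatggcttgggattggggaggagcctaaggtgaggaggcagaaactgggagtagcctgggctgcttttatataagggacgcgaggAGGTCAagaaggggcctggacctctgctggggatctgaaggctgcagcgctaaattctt
Pparg window 3: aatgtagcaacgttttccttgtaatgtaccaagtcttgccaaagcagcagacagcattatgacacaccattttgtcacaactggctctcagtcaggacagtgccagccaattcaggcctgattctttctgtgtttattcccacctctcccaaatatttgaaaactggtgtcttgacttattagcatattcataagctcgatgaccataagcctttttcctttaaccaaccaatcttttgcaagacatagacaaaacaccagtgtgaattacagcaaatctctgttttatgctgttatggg
Ppard: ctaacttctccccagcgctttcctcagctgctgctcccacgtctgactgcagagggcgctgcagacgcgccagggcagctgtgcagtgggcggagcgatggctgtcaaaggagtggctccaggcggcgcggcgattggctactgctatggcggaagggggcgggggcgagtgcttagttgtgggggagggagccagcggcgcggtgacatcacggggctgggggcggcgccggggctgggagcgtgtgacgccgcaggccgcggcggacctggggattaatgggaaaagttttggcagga
Rxra window 1: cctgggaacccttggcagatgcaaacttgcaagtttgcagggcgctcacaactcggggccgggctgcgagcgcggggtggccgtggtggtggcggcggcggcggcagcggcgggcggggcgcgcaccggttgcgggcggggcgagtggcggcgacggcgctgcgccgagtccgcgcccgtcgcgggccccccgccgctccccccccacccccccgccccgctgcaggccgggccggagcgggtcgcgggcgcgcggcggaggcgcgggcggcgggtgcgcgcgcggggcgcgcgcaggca
Rxra window 2: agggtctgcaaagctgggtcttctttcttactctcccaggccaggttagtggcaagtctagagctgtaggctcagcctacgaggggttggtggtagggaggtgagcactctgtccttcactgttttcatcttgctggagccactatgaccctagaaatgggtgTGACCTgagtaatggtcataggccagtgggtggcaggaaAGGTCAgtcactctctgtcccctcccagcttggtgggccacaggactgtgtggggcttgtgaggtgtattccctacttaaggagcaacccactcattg

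The 3 Pparg windows differed in base composition, with a GC content of 80.3% in window 1, 62.7% in window 2 and 40.3% in window 3. The Ppard window had a GC content of 68.3%, and the Rxra windows had 83.0% and 54.3%, against a median of 52.7% over all 32851 windows in the table. On either strand, AGGTCA lay in 4 of the 11 windows of the 6 genes and in 16.3% of all windows. Pparg windows 1 and 2 held 1 match each, Rxra window 2 held 2, and window 2 of Rxrg held 1. A direct repeat, AGGTCA then any 1 base (N) then AGGTCA, searched on both strands and containing the single element, was in 0 of the 11 windows and in 0.0396% of all windows. These matches are descriptions of the letters only. The Pparg cluster of the array begins just after the first of the 3 start sites and spans the other two, and it gives a single value for the gene.

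The values are log2 expression, as deposited after background correction and quantile normalization, so each value stands relative to the other genes of its array. Antigenomic probes, which match no mouse sequence, had medians of 2.07 to 2.32 per array. Pparg and Rxra were above the brightest antigenomic probe on 9 of 9 arrays and Ppard on 7, while Rxrb was above it on 1 array and Ppara and Rxrg on 0. All 6 genes were above the median of these probes on every array. Groups were compared with limma, a linear model that shares information on the spread over genes, with all 9 arrays in 1 fit. A difference is called where its adjusted p (Benjamini-Hochberg over all 30860 genes) is under 0.05. Of all genes tested, 0.12% were called between AM73 and DMSO, 13.9% between AM80 and DMSO, and 19.1% between AM80 and AM73.

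Technical readings of the arrays also moved with the groups. Added poly-A control transcripts had a median log2 signal of 4.51 to 4.83 on the DMSO arrays, 4.08 to 4.68 with AM73 and 5.20 to 5.85 with AM80. On every array this median lay below the brightest antigenomic probe, which read 5.19 to 7.34 over the arrays, and above the antigenomic median. Scaling the arrays to these controls moves every difference by 0.29 for AM73 against DMSO, by -0.84 for AM80 against DMSO and by -1.13 for AM80 against AM73. The mean of the 6 brightest antigenomic probes was 5.21 to 5.95 with DMSO, 4.52 to 5.48 with AM73 and 5.69 to 6.12 with AM80. A number that ends each array's name, which the labels do not explain, was 5 for all AM80 arrays, DMSO replicate 2 and AM73 replicate 2, and 7 for the other 4 arrays. The part of these readings in the results was not tested beyond the alternative fits given beside them.

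Of the PPAR genes, Pparg fell and Ppard rose with AM80 relative to both other groups, the rise of Ppard being lost or turned under the poly-A scaling, and Ppara had no called difference. Pparg (chr6:115361221-115490401, mm10), the main PPAR of fat cells, read 10.3, 10.04 and 9.80 on DMSO replicates 1 to 3. It read 10.05, 10.09 and 10.10 with AM73 and 8.92, 9.17 and 9.32 with AM80. All AM80 arrays were below all arrays of the other groups, and the AM73 arrays lay inside the DMSO range. Among the DMSO arrays, replicate 3 was the nearest to AM80. The AM80 mean of 9.14 ± 0.20 (SD, n = 3) was 1.88-fold below the DMSO mean of 10.05 ± 0.25, a log2 difference of -0.91 with a 95% interval of -1.24 to -0.58 (limma, adjusted p = 0.00497). Against AM73, at 10.08 ± 0.03, it was 1.92-fold lower (limma log2 difference -0.94, adjusted p = 0.00217). AM73 and DMSO differed by 0.03, with an interval of -0.30 to 0.36 (limma, adjusted p = 0.971). In bulk RNA, fewer cells that express a gene and less of its RNA per cell cannot be told apart.

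The fall of Pparg stayed below 0 under the poly-A scaling, at -1.75 against DMSO. It was called against DMSO in all 9 fits that left out 1 array, where the difference ran from -1.03 to -0.78 and the adjusted p reached at most 0.0247. With the unexplained array number as a term, the difference was -0.91 (limma, adjusted p = 0.0384). Within the arrays numbered 5, where DMSO and AM73 have 1 array each, it was -0.90, and with so few arrays a call cannot be judged.

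Ppard (chr17:28232754-28301469, mm10), the PPAR expressed in most tissues, read 6.79, 6.66 and 7.11 with DMSO. Its levels were 7.05, 7.06 and 6.86 with AM73 and 8.08, 7.65 and 7.53 with AM80. Every AM80 array was above every other array, AM73 and DMSO overlapped, and DMSO replicate 3 was again the DMSO array nearest to AM80. The AM80 mean of 7.75 ± 0.29 was 1.87-fold above the DMSO mean of 6.85 ± 0.23, with a log2 difference of 0.90, an interval of 0.53 to 1.28 and an adjusted p of 0.00836 in limma. With the poly-A scaling this difference was 0.06 (limma, adjusted p = 0.840), so the rise of Ppard is a rise relative to the other genes on the array. Against the AM73 mean of 6.99 ± 0.11 it was 1.70-fold higher (limma, adjusted p = 0.0104), and the poly-A scaling turned that difference from 0.76 to -0.36. AM73 and DMSO differed by 0.14, with an interval of -0.24 to 0.51 (limma, adjusted p = 0.860). Leaving out each array in turn kept the call of Ppard against DMSO in all 9 fits, with differences of 0.74 to 1.03. With the array number as a term it was 0.96 (limma, adjusted p = 0.0436). Within the arrays numbered 5, where a call cannot be judged, the Ppard difference was 1.09.

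Ppara (chr15:85734983-85806851, mm10), the fat oxidation regulator, lay between the median and the brightest antigenomic probe and varied within groups. It read 2.97, 3.40 and 3.03 with DMSO, 2.76, 3.65 and 3.26 with AM73, and 2.89, 3.03 and 3.18 with AM80. The 3 groups overlapped, and the 2 AM73 arrays furthest apart differed by more than any group means did. The intervals were -0.39 to 0.57 for AM73 against DMSO, -0.58 to 0.38 for AM80 against DMSO and -0.67 to 0.29 for AM80 against AM73. The smallest adjusted p of these in limma was 0.613. With the poly-A scaling Ppara was below DMSO by -0.94 with AM80 (limma, adjusted p = 0.00565), and the difference between the compounds was -1.32 (adjusted p = 7.67e-05). Under that scaling the median over all genes was -0.80 and -1.05 in the same comparisons.

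**Figure D1:**
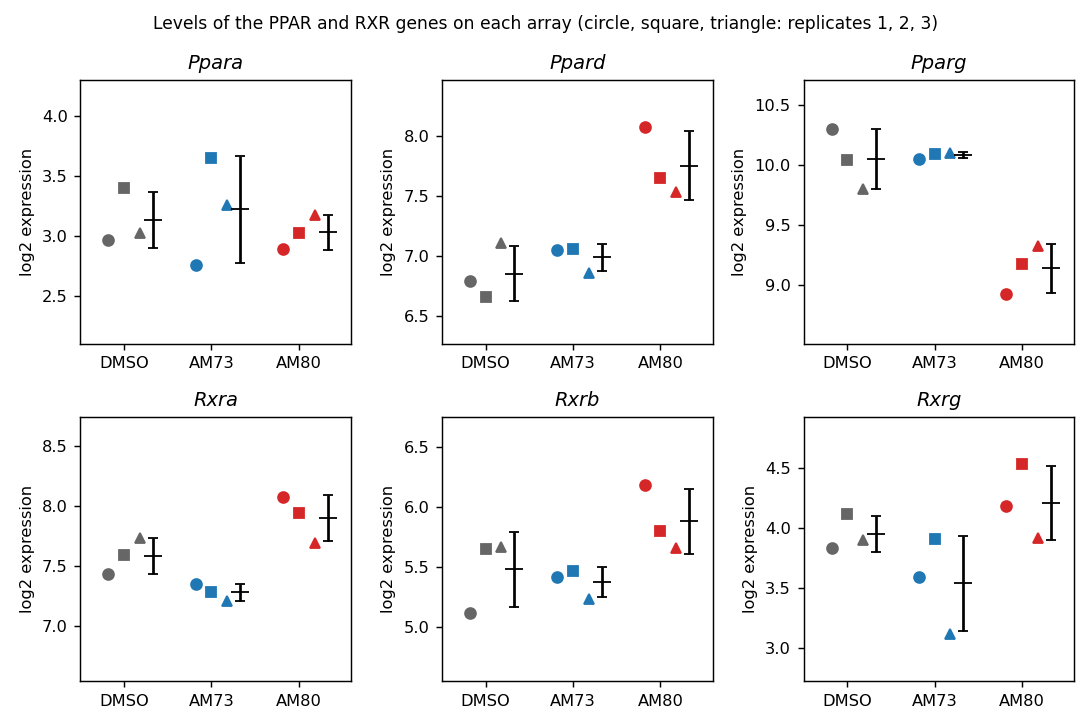
Log2 expression of the 6 receptor genes (vertical axes, each on its own scale) on each of the 9 arrays by treatment, with the group mean and its SD. The AM80 arrays of Pparg lie below all other arrays and those of Ppard above them, while a scaling to the poly-A controls lowers the Ppard difference from DMSO to 0.06.

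The RXR genes had their lowest means with AM73 and their highest with AM80, with DMSO between, an order in which the poly-A scaling puts AM80 lowest. The 1 called difference was that of Rxra between the compounds. Rxra (chr2:27676440-27763319, mm10), the RXR found most widely in tissues, read 7.43, 7.59 and 7.73 with DMSO. It read 7.35, 7.28 and 7.21 with AM73 and 8.07, 7.94 and 7.69 with AM80. All AM73 arrays were below all DMSO arrays, and AM80 replicate 3 lay under DMSO replicate 3. The means were 7.28 ± 0.07 with AM73, 7.58 ± 0.15 with DMSO and 7.90 ± 0.19 with AM80 (SD, n = 3). AM80 was 1.54-fold above AM73, a log2 difference of 0.62 with an interval of 0.33 to 0.91 (limma, adjusted p = 0.00785), which turned to -0.51 under the poly-A scaling. Neither compound's Rxra passed the test against DMSO, with -0.30 for AM73 (interval -0.59 to -0.02, limma adjusted p = 0.636) and 0.32 for AM80 (interval 0.03 to 0.60, adjusted p = 0.152).

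The call of Rxra between the compounds held in all 9 fits that left out 1 array, with differences of 0.54 to 0.73. With the array number as a term it was 0.62 (limma, adjusted p = 0.0480). With the bright antigenomic probes as a covariate, Rxra differed by 0.41 between the compounds (limma, adjusted p = 0.351), Pparg by -0.74 (adjusted p = 0.155) and Ppard by 0.37 (adjusted p = 0.478), so none of the 3 kept its call. Within the arrays numbered 5, where AM73 has 1 array, the 3 differences were 0.62, -0.95 and 0.69, with adjusted p values of 0.272, 0.224 and 0.329 in limma.

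Rxrb (chr17:34031812-34038403, mm10) encodes RXRβ. Its log2 levels were 5.12, 5.65 and 5.67 with DMSO, 5.42, 5.47 and 5.23 with AM73, and 6.18, 5.80 and 5.66 with AM80. AM80 was above AM73 on every array and overlapped DMSO, whose replicate 1 was the lowest of all arrays. The difference between the compounds was 0.51, with an interval of 0.10 to 0.91 (limma, adjusted p = 0.0854), and the poly-A scaling turned it to -0.62. Without DMSO replicate 1 it passed the test (limma, adjusted p = 0.0463). Against DMSO it was -0.11 for AM73 (interval -0.51 to 0.30) and 0.40 for AM80 (interval -0.01 to 0.81).

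Rxrg (chr1:167598362-167639623, mm10) encodes RXRγ, which is known from muscle and brain. It read 3.83, 4.12 and 3.90 with DMSO, 3.59, 3.91 and 3.12 with AM73, and 4.18, 4.53 and 3.92 with AM80. Every AM80 array was above every AM73 array, though AM80 replicate 3 exceeded AM73 replicate 2 by little, and both groups overlapped DMSO. The difference between the compounds was 0.67, with an interval of 0.20 to 1.15 (limma, adjusted p = 0.0542), and -0.46 under the poly-A scaling. Without AM73 replicate 2 it passed the test (limma, adjusted p = 0.0291), as it did without AM80 replicate 3 (adjusted p = 0.0324). Against DMSO it was -0.41 for AM73 (interval -0.89 to 0.07) and 0.26 for AM80 (interval -0.22 to 0.74).

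**Figure D2:**
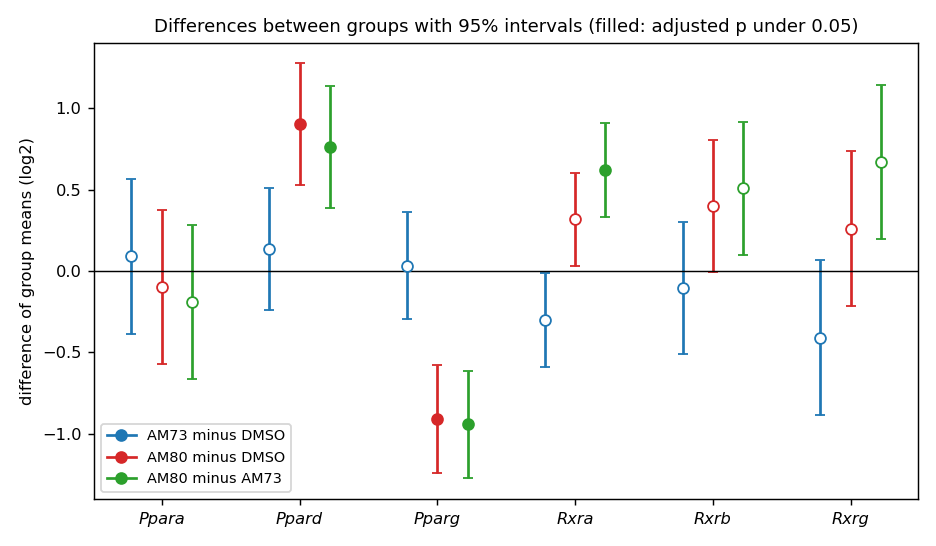
Differences of group means (log2, vertical axis) with 95% intervals for the 6 genes in the 3 comparisons, where filled points have an adjusted p under 0.05. Pparg lies below 0 and Ppard above 0 in both AM80 comparisons, and Rxra above 0 against AM73, while the poly-A scaling takes the Ppard and Rxra differences from AM73 to -0.36 and -0.51.

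Counted together, 0 of the 6 genes were called between AM73 and DMSO, where 0.12% of all genes were (0.104% higher and 0.0162% lower), and 1 gene, Rxra, had an unadjusted p under 0.05. Between AM80 and DMSO 2 of the 6 were called (33.3%), against 13.9% of all genes. Ppard was higher, as were 6.9% of all genes, and Pparg was lower, as were 7.04%. With the poly-A scaling Pparg and Ppara were the 2 called. Between the compounds 3 of the 6 were called (50%), against 19.1% of all genes. Ppard and Rxra were higher with AM80, as were 9.92% of all genes, and Pparg was lower, as were 9.22%. With the poly-A scaling the 3 called were Pparg, Ppara and Rxrb, all lower with AM80. Arrays did not overlap for Rxra between AM73 and DMSO, for Pparg and Ppard between AM80 and DMSO, and for 5 genes between the compounds, with Ppara as the exception. Over all genes the arrays did not overlap for 12.6%, 25.5% and 31.5% in the same order. The first and second comparisons share the DMSO arrays, and each compound's arrays serve 2 comparisons.

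In the authors' deposited table, which holds a test of linear values, Pparg was 1.89-fold lower with AM80 than with DMSO, with a p of 0.0124 and a q of 0.139. The authors' deposited table gives Ppard a fold of 1.88 with a q of 0.150. Between the compounds the authors' deposited table gives Pparg a fold of -1.91 with a q of 0.0145, Ppard 1.72 with a q of 0.0825 and Rxra 1.54 with a q of 0.0503. The folds were thus close to those of the limma fit, and 1 of the 6 genes, Pparg between the compounds, had a q under 0.05.

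Across the 9 arrays, the levels of Ppard and Pparg had a Pearson correlation of -0.95, Pparg and Rxra -0.89, and Rxra and Rxrb 0.88. These points share arrays, normalization and treatment groups, so the values describe these 9 arrays only. Among 14229 brighter genes, those with the pattern most like that of Pparg were Krr1 (r = 0.998), Msl3 (r = 0.998) and Pik3r1 (r = 0.998). Nearest to Ppard were Gnb2 (r = 0.990), Ogfr (r = 0.989) and Pald1 (r = 0.988). For Rxra they were Slc25a1 (r = 0.989), Puf60 (r = 0.989) and Mars1 (r = 0.988). Rxrb came closest to Tmem189 (r = 0.988), Scap (r = 0.977) and Coasy (r = 0.969), and Rxrg to Eps8l3 (r = 0.963), Nagk (r = 0.945) and Hes3 (r = 0.944). The likest genes to Ppara had lower values, with Dgkeos at 0.910, Zfp212 at 0.893 and Wdr20rt at 0.878.

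The listed PPAR coactivators and corepressors fell with AM80 in many cases. Of 20 measured, 12 fell and 0 rose against DMSO, with a median log2 difference of -0.78, where 7.04% of all genes fell, 6.9% rose and the median gene moved by 0.04. Ppargc1a, which encodes the coactivator PGC-1α, read 7.31, 7.19 and 6.67 with DMSO, 6.82, 6.80 and 6.82 with AM73, and 5.14, 5.23 and 5.83 with AM80. The AM80 arrays were below all others, 3.15-fold below DMSO in their means (log2 difference -1.66 with SE 0.21, limma adjusted p = 0.00238). Against AM73 they were 2.66-fold lower (limma, adjusted p = 0.00166), and AM73 and DMSO differed by -0.24 (adjusted p = 0.796). Ncor1, a corepressor of nuclear receptors, read 7.90, 7.44 and 6.97 with DMSO and 5.66, 5.80 and 6.17 with AM80, a fall of 1.56 on the log2 scale (limma, adjusted p = 0.00325). The corepressor gene Nrip1 fell by 1.62 (limma, adjusted p = 0.00351) and the coactivator gene Ncoa1 fell by 1.21 (adjusted p = 0.00388). These 4 falls kept their calls in all 9 fits that left out 1 array and with the array number as a term.

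The number of coregulators called against DMSO was 5 without DMSO replicate 1, 5 with the array number as a term and 8 with the bright antigenomic probes as a covariate. In the same fits 1740, 1440 and 2403 of all 30860 genes were called, against 4302 in the main fit. Genomic span also moved with the differences. The median span of the 20 coregulator genes was 119093 bp, and over all brighter genes that span 100000 to 200000 bp the median difference from DMSO was -0.15 with AM80, against 0.14 for those of up to 5000 bp. Pparg spans 129526 bp, Rxra 86875 bp and Ppard 68716 bp. The part of span in these differences was not tested. Against AM73, 13 of the 20 coregulators were lower with AM80 and 1 was higher, with a median of -1.09 over the list. Of all genes, 9.22% were lower and 9.92% higher in this comparison. The differences were -1.95 for Ncor1, -1.50 for Ncoa1, -1.41 for Ncoa2 and -1.20 for Ep300. With AM73, 0 of 20 were called against DMSO and 3 had an unadjusted p under 0.05, among them Ep300, a histone acetyltransferase, at 0.42 (limma, adjusted p = 0.608).

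**Figure D3:**
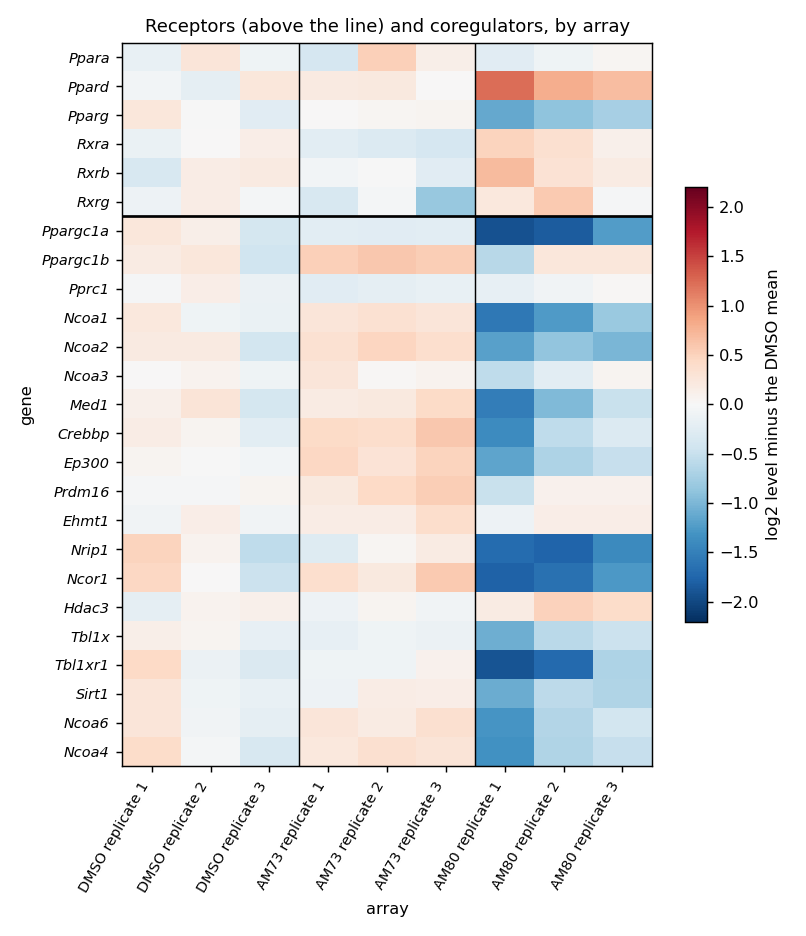
Log2 level minus the DMSO mean of the gene (color) for the 6 receptor genes, above the line, and 19 of the 20 coregulators, on each array. The AM80 columns are blue for Pparg, Ppargc1a, Ncor1 and Nrip1, and they are red for Ppard, whose AM80 rise is 0.06 under the poly-A scaling.

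Of the other receptors that pair with RXRs, 4 of 13 rose and 0 fell with AM80 against DMSO, with a median of 0.17. Over all genes 6.9% rose and 7.04% fell. Rara, which encodes retinoic acid receptor α, read 5.01, 5.13 and 5.49 with DMSO, 5.69, 5.69 and 5.65 with AM73, and 5.99, 5.94 and 5.92 with AM80. The 3 groups did not overlap, and its AM80 difference of 0.74 was called (SE 0.13, limma adjusted p = 0.00644) while its AM73 difference of 0.47 was not (adjusted p = 0.376). Nr1h2, which encodes liver X receptor β, rose by 0.93 (limma, adjusted p = 0.00755), Rarg by 0.60 (adjusted p = 0.0237) and Thra, a thyroid hormone receptor gene, by 0.60 (adjusted p = 0.0250). The poly-A scaling turned Rara to -0.10, Rarg to -0.24 and Thra to -0.24 and left Nr1h2 at 0.09. The count was 2 without DMSO replicate 1 or without AM80 replicate 1, where Rarg and Thra lost their calls, as Thra did without AM80 replicate 2, and with the array number as a term it was 1, Rara. The 4302 calls over all genes became 1740 without DMSO replicate 1, 2492 without AM80 replicate 1 and 1440 with that term. Between the compounds 3 rose with AM80 and 0 fell, where 9.92% and 9.22% of all genes did. These were Nr1h2 by 0.83, the liver X receptor gene Nr1h3 by 0.66 and Rarg by 0.59, all below 0 under the poly-A scaling. Without AM73 replicate 3 the count was 1, Nr1h2, as with the array number as a term, and Rarg also lost its call without AM73 replicate 1 or AM80 replicate 1. The 5907 calls over all genes became 4164 without AM73 replicate 3 and 3513 with the array number as a term.

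Target genes of PPARγ in fat cells moved both ways with AM80, with 4 of 26 higher and 4 lower than with DMSO and a median of 0.20. Over all genes 6.9% were higher and 7.04% lower. Cd36, the fatty acid transporter gene, read 11.25, 10.98 and 10.66 with DMSO, 10.86, 11.08 and 11.12 with AM73, and 9.22, 9.52 and 9.85 with AM80. Its AM80 arrays were below all others, with a difference of -1.43 (SE 0.19, limma adjusted p = 0.00257) that was called in all 9 fits with 1 array left out. Lpl, which encodes lipoprotein lipase, fell by 0.56 (limma, adjusted p = 0.0137). The adipsin gene Cfd rose by 0.86 (limma, adjusted p = 0.0134) and Aqp7, a glycerol channel gene, by 0.57 (adjusted p = 0.0268), and the poly-A scaling took them to 0.02 and -0.27. Cfd lost its call without DMSO replicate 1 or 2, Lpl without these or AM80 replicate 2, and Aqp7 without these or AM80 replicate 1. Without DMSO replicate 1 or 2 the number called was 1, without AM80 replicate 2 it was 2, without AM80 replicate 1 it was 3, and without AM73 replicate 1 or 3 it was 5. In order, these fits called 1740, 2180, 2482, 2492, 3607 and 3642 of all genes, against 4302 in the main fit. With the array number as a term the count was 2, and Lpl (limma, adjusted p = 0.0536), Cfd (adjusted p = 0.0854) and Aqp7 (adjusted p = 0.0975) lost their calls, and with the bright antigenomic probes as a covariate it was 3. With the term 1440 of all genes were called, and with the covariate 2403. The most used markers of fat cells were bright in every group. Fabp4 had means of 12.61 with DMSO, 12.51 with AM73 and 12.50 with AM80, and Adipoq had 9.15, 9.04 and 9.5.

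Between the compounds, 10 of the 26 targets were higher with AM80 and 4 were lower, where 9.92% and 9.22% of all genes were. The 14 calls became 7 without AM73 replicate 3 or AM80 replicate 2, 8 without AM73 replicate 1 or AM80 replicate 1, and 9 without AM73 replicate 2, and 6 with the array number as a term. In order, these fits called 4164, 4528, 4769, 4607, 4461 and 3513 of all genes, against 5907 in the main fit. Cfd read 8.01, 8.20 and 7.84 with AM73 and 9.97, 9.55 and 9.23 with AM80, a difference of 1.57 (limma, adjusted p = 0.000864), which stays above 0 under the poly-A scaling. The difference was -1.49 for Cd36 (limma, adjusted p = 0.00104) and -0.74 for Lpl. Gpd1, which encodes glycerol-3-phosphate dehydrogenase, was higher by 0.65 and turns below 0 under the poly-A scaling. With AM73 against DMSO 0 of 26 were called and 4 had an unadjusted p under 0.05. Gpd1 had the smallest adjusted p of them, with a difference of -0.43 (limma, adjusted p = 0.288) and AM73 arrays all below the DMSO arrays.

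Of the target genes of PPARα and PPARδ in fatty acid oxidation, 7 of 27 measured rose and 2 fell with AM80 against DMSO. The list median was 0.18, and over all genes 6.9% rose and 7.04% fell. Angptl4, which encodes a lipoprotein lipase inhibitor and is a target of all PPARs, read 6.64, 6.88 and 7.32 with DMSO. It read 7.79, 7.79 and 7.64 with AM73 and 8.58, 8.25 and 8.15 with AM80. Both compounds' arrays were above all DMSO arrays, but the AM80 difference was called (1.38 with SE 0.18, limma adjusted p = 0.00257) and the AM73 difference of 0.79 was not (adjusted p = 0.239). The compounds themselves differed by 0.59 (limma, adjusted p = 0.0457), or by -0.54 under the poly-A scaling, and 3 of the 9 fits with 1 array left out kept this call, those without DMSO replicate 1 or 3 or AM80 replicate 3. For AM80 against DMSO the poly-A scaling left a difference of 0.54 but without its call. The β-oxidation genes Acaa2 and Acaa1a rose by 0.72 and 0.62. Both turned below 0 under the poly-A scaling, at -0.12 and -0.22. The number called was 4 without DMSO replicate 1 or 2 or AM80 replicate 1, and 5 without AM80 replicate 2. With the array number as a term it was 2, and Acaa2 (limma, adjusted p = 0.0604) and Acaa1a (adjusted p = 0.0596) lost their calls, and with the covariate it was 4. Calls over all genes in these fits were, in order, 1740, 2180, 2492, 2482, 1440 and 2403, against 4302 in the main fit.

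Between the compounds, 7 of these oxidation genes were higher with AM80 and 2 were lower, where 9.92% and 9.22% of all genes were. The 9 calls became 4 without AM73 replicate 2, 5 without AM73 replicate 3 or AM80 replicate 1, and 5 with the array number as a term. Calls over all genes went from 5907 to 4461, 4164, 4607 and 3513 in these fits. Acadvl, the very long chain acyl-CoA dehydrogenase gene, was higher by 1.06, Acaa2 by 0.95 and the carnitine palmitoyltransferase gene Cpt2 by 0.43, all less than the 1.13 by which the poly-A scaling lowers them. Against DMSO, 0 of 27 were called with AM73 and 5 had an unadjusted p under 0.05.

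Genes of ligand supply and retinoid binding, such as fatty acid and retinoid carriers and the enzymes that make or clear these ligands, gave few calls. With AM80 0 of 18 were called against DMSO in limma, against 13.9% of all genes. Of these 18, 3 had an unadjusted p under 0.05, and the median was 0.06. Between the compounds 1 was called, the prostaglandin synthase gene Ptgs2, with a difference of -0.52 (limma, adjusted p = 0.0487). That call was kept in 1 of the 9 fits with 1 array left out, the one without AM73 replicate 1. With AM73 0 were called and 3 had an unadjusted p under 0.05. Under the poly-A scaling 16 of the 18 were called with AM80 against DMSO and 18 between the compounds. That scaling called 24222 and 28182 of all genes. Of 17 measured upstream regulators of Pparg, 4 rose and 1 fell with AM80 against DMSO, with a median of 0.07. Over all genes 6.9% rose and 7.04% fell. Ebf1, a fat cell transcription factor gene, read 8.18, 7.91 and 7.35 with DMSO and 6.55, 6.84 and 7.07 with AM80, a fall of 0.99 (limma, adjusted p = 0.0168). Stat5a rose by 0.75 (adjusted p = 0.00980), Cebpa, a partner of PPARγ in fat cell formation, by 0.64 (adjusted p = 0.0340) and Klf2 by 0.62 (adjusted p = 0.0415), and all 3 turned below 0 under the poly-A scaling. Ebf1 lost its call without DMSO replicate 1 or 2 or AM80 replicate 1 or 2, while Cebpa and Klf2 kept theirs in 2 of the 9 fits each. With the array number as a term 0 of the 17 were called, and without DMSO replicate 1 or 2 or AM80 replicate 2 the count was 1. It was 2 without AM73 replicate 1 or 3 or AM80 replicate 1, and 3 without AM73 replicate 2. In order, these fits called 1440, 1740, 2180, 2482, 3607, 3642, 2492 and 3572 of all genes, against 4302 in the main fit.

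Between the compounds 4 of the 17 regulators were higher with AM80 and 2 were lower, where 9.92% and 9.22% of all genes were. The difference was -1.52 for Ebf1 and -1.27 for Ebf2, a gene of brown fat cell identity (limma, adjusted p = 0.00176). Cebpa was higher by 1.00 (limma, adjusted p = 0.00322) and Stat5a by 0.72, both below 0 under the poly-A scaling. With AM73 0 of 17 were called against DMSO, and 3 had an unadjusted p under 0.05. All calls between the compounds in the 6 lists were lost with the bright antigenomic probes as a covariate, where limma called 0 of all genes and 4572 had an unadjusted p under 0.05.

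**Figure D4:**
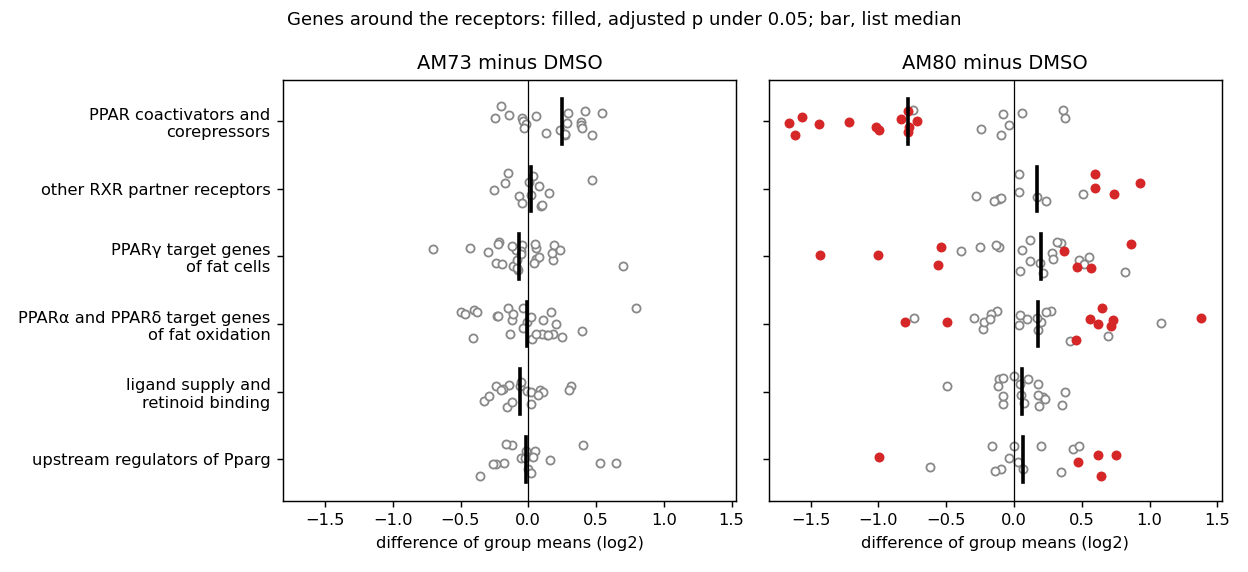
Differences of group means from DMSO (log2, horizontal axes) for each gene of the 6 lists around the receptors, 1 panel per compound. Filled points have an adjusted p under 0.05, and a bar marks the list median. The coregulators have the lowest median in the AM80 panel, at -0.78, and a median of 0.25 in the AM73 panel. A poly-A scaling would move all points by -0.84 in the AM80 panel and by 0.29 in the AM73 panel.

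The labelled cell type was checked against markers. Ucp1, the uncoupling protein of brown fat cells, read 3.54, 3.80 and 4.56 with DMSO, 6.61, 6.04 and 5.74 with AM73, and 5.99, 5.70 and 6.01 with AM80. It rose by 2.16 with AM73 (limma, adjusted p = 0.0256) and by 1.93 with AM80 (adjusted p = 0.00320), and the AM73 call was kept in 2 of the 9 fits with 1 array left out, those without DMSO replicate 3 or AM80 replicate 3. The AM73 call was also lost with the array number as a term (limma, adjusted p = 0.0601). Another brown fat cell marker, Cox7a1, was higher by 1.13 with AM80 than with DMSO (limma, adjusted p = 0.0159) and by 0.29 under the poly-A scaling, and lost its call without DMSO replicate 1 or 2. Of 10 brown fat cell markers, Dio2, Lhx8 and Eva1a were below the median gene. Ucp1 lay below the brightest antigenomic probe on each DMSO array, at 6.85, 6.15 and 7.34, and on each AM80 array, at 7.19, 6.97 and 6.76. With AM73 Ucp1 equalled that probe on replicate 1 (6.61), was below it on replicate 2 (6.12) and above it on replicate 3 (5.19). With AM80 6 of the 10 were above DMSO and 4 below, and with AM73 7 above and 3 below. Ebf2 had means of 7.08 with DMSO and 6.46 with AM80, and Elovl3 had 8.44 with DMSO and 7.82 with AM73. Between the compounds 2 of the 10 were called lower with AM80 and 0 higher, against 9.22% and 9.92% of all genes. The summed linear level of the list was 716 to 815 with DMSO, 786 to 954 with AM73 and 860 to 1180 with AM80. Summed preadipocyte and fibroblast markers ran from 482 to 561, 492 to 598 and 342 to 575 in the same order, white fat cell markers from 303 to 343, 320 to 347 and 276 to 344. Of the white fat cell markers, Hoxc8 fell by 1.13 with AM80 against DMSO (limma, adjusted p = 0.00577), a call kept in all 9 fits with 1 array left out. Agt rose by 0.49 (limma, adjusted p = 0.0415), turned to -0.35 under the poly-A scaling, and kept its call in 1 of those 9 fits, the one without AM80 replicate 3. Of 8 macrophage markers, 6 were below the median gene, Adgre1, Csf1r and Ptprc among them, with sums of 53.3 to 60, 50.3 to 58 and 52.4 to 56.8. Of 7 endothelial markers, 6 were below it, with sums of 37.1 to 37.4, 34.2 to 37.1 and 37 to 42.5. Skeletal muscle markers summed to 60.3 to 67.1, 58.4 to 58.8 and 72.3 to 92.6, with 4 of 8 below the median gene and Acta1 called with AM80 (0.90, or 0.06 under the poly-A scaling). The part of other cell types in the receptor differences was not tested.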

How the data were processed

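The deposited tables hold 41345 features of 9 Affymetrix mouse whole-transcript arrays, made from 100 ng of total RNA each. The authors deposited log2 values, which per the file headers were background corrected (RMA), quantile normalized and summarised by median polish, with NetAffx annotation on mm10. The submitters' processing notes name Affymetrix Expression Console 1.41. The authors' table also gives, per the file headers, signed folds (a score in which falls are negative) and p-value and q-value columns.

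Of 33793 gene features, 32202 had a symbol. The feature with the highest mean was kept for each symbol, which left 30860 genes. Symbols were updated through Entrez identifiers (25099 matched, 1913 renamed). The linear models and moderated tests (two-sided) came from limma 3.58.1 under R 4.3.3, with 6 residual degrees of freedom and Benjamini-Hochberg adjustment over all genes at a threshold of 0.05. The number of arrays limits the precision. The fit was tested on simulated data. The receptors, gene lists, lists of markers and tests were chosen with earlier results of these data known. Up to 4 genes per list and comparison, those with the smallest adjusted p, were named, besides the receptors, Ppargc1a and Ucp1. Acta1, Hoxc8, Agt, Cox7a1, Elovl3, Fabp4 and Adipoq were added after their values were seen. Some genes that this rule selects are not reported here. Likest genes were the 3 with the highest Pearson r among genes above the 40th percentile of mean level. Alternatives changed scaling, filter, model, covariates or 1 array at a time.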

Additional observations from a re-analysis of the deposited data

How the results depend on the processing

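The calls of the receptor genes were recomputed under 25 alternatives for AM73 against DMSO and 24 for each AM80 comparison. With AM73, 0 of the 6 were called in every one. With AM80 against DMSO, the 2 calls became 0 within the arrays numbered 5, in the t-test of log2 values and by the authors' q-value. Between the compounds, the 3 calls became 5 after a second quantile normalization, 0 within the arrays numbered 5, 0 with the bright antigenomic probes as a covariate, and 1 in the t-test and by the authors' q-value. Leaving out 1 array gave 2 calls against DMSO and 3 to 4 between the compounds.

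Over all genes, the 37 calls of AM73 became 124 under the poly-A scaling, 107 with array weights, 18 with the array number as a term, 11 with the covariate, 4 in an ordinary linear model, 3 in the t-test, 3 by the authors' q-value, 2 with only the groups compared, and 0 within either array number (1772 and 1804 with an unadjusted p under 0.05). Leaving out 1 array gave 0 to 37, the 0 without DMSO replicate 1 (2547 unadjusted). The 4302 calls of AM80 became 24222 under the poly-A scaling, 2403 with the covariate, 2086 with only the groups compared, 1642 in an ordinary linear model, 1440 with the array number as a term, 5 by the authors' q-value, 3 in the t-test and 0 within the arrays numbered 5 (4256 unadjusted). Leaving out 1 array gave 1740 to 5226, the lowest without DMSO replicate 1. The 5907 calls between the compounds became 28182, 3513, 1414, 3475, 0 and 0 under the poly-A scaling, the array number as a term, the t-test, the authors' q-value, the covariate and the arrays numbered 5 (4572 and 5446 unadjusted in the last pair). Centring arrays on their medians gave 2209 higher and 3215 lower genes between the compounds, against 3061 and 2846.

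The poly-A scaling reversed AM80 against DMSO for Rxra (-0.52), Rxrb (-0.44) and Rxrg (-0.58), AM80 against AM73 for Ppard (-0.36), Rxra (-0.51), Rxrb (-0.62) and Rxrg (-0.46), and AM73 against DMSO for Rxrb (0.18). The covariate reversed AM73 against DMSO for Rxrb (0.037), Ppara (-0.15) and Pparg (-0.093), and Ppara in both AM80 comparisons (0.053 against DMSO, 0.21 against AM73). With the array number as a term Rxrg was -0.01 for AM80 against DMSO, and with array weights Ppara was -0.001 for AM73. Leaving out 1 array reversed Pparg for AM73 (-0.09, without DMSO replicate 3, to 0.16) and Ppara for AM73 (-0.123, without AM73 replicate 2, to 0.322), for AM80 (-0.182 to 0.033, without DMSO replicate 2) and between the compounds (-0.422 to 0.023, without AM73 replicate 2). The cause of these changes was not tested, beyond the constant shift that the poly-A scaling is.

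Replicate numbers are shared between groups, but arrays of the same number did not deviate together (correlations of -0.39 to 0.11), so they were not taken as pairs. A replicate block gave 6, 2999 and 5063 calls over all genes in the 3 comparisons. With this block Rxrg was called between the compounds (0.67, limma adjusted p = 0.0168) and the calls of the other receptors did not change.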
